A study of Mus musculus with 17 samples.

Results

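Solid tumours on the intestine were compared with ascites in mice carrying ovarian tumours grown from ID8, a line described by its label as mouse ovarian surface. The comparison used 9 of the 17 libraries of the series: 3 tumours on the intestine, and 6 ascites libraries made up of 3 from the first tap and 3 from the second. All 9 came from animals given ID8 cells inside the bursa of the right ovary. The ovarian tumours went on to spread, ascites was then drawn in turn with a syringe, and solid tissue was taken from the intestine. No further treatment is given for these groups, and the age and strain of the injected animals are not stated. Every gene that passed a low-count filter was a member, which left 22671 of the 43629 genes in the table. Healthy C57BL6 intestine (1 library) and the cultured ID8 line (1 library) are given as levels, without a test, beside the genes whose values are described. The labels do not say which samples share an animal or how much bowel wall was taken with each tumour. P-values come from a fit of all 17 libraries in 8 groups. They thus measure only the spread between libraries of the same group, other tumour sites included. The fit counts every library as independent, so the p-values make no allowance for tumours or taps that share an animal. Ascites is a fluid holding tumour cells and host cells, so both arms are mixed tissues. In bulk RNA, fewer cells of a type and less RNA per cell cannot be told apart.

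The study asks whether ID8 cells take on epithelial or mesenchymal features as they spread. The lining of the gut is a sheet of absorptive enterocytes with scattered goblet, Paneth and enteroendocrine cells, renewed from crypt stem cells and resting on smooth muscle, fibroblasts and vessels. The fluid of the peritoneal cavity is instead rich in resident macrophages, and in ovarian cancer it also carries tumour cell clusters and incoming myeloid cells. Ovarian carcinoma spreads mainly across this cavity, so its deposits on the bowel lie against gut tissue.

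Counts per library ran from 12031221 in tumour 1 to 38860082 in the second library of the second tap. No pair of replicates agreed within sampling noise. Ascites libraries of the first tap, number 3, and of the second tap, number 1, stood apart, with 32846 and 32775 genes detected. The other 7 had 23025 to 25869. Olfactory receptor reads in these 2 were 184.6 and 179.9 CPM. Second tap 3 came next at 123.1 CPM, and the rest of the 9 had 16.92 to 63.15 CPM. The library names in the labels fall into 2 series, and tumour 1 shares its series with first tap 1 and second tap 2. List counts that changed by over 1.5 times without 1 library or with 1 tap alone are given with their results.

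The tumours were first checked against genes of the line and of the gut. Gut genes were 101 genes with at least 50 CPM (counts scaled to a common library size after TMM scaling) in healthy intestine and under 0.5 CPM in both the line and healthy ovary. Their median level in tumours 1, 2 and 3 was 64.2, 94.5 and 28.5% of that in healthy intestine, against 0 to 0.226% in the 6 ascites libraries. Of the 101 genes, 100 were higher in the tumours. The reverse rule, for genes of the line, found Pax3 and Ankrd1 only, and a wider rule set after these were seen (20 CPM or more in the line and less than 1 CPM in healthy ovary and healthy intestine) found 15. The median level of the 15 was 0.809, 2.83 and 7.15% of the line in tumours 1, 2 and 3, against 6.44 to 15.5% in ascites. In the 3 tumours of the ovary itself it was 5.44, 4.59 and 18.3%. None of the 15 passed in edgeR, 5 had an unadjusted p under 0.05 and DESeq2 called 5 lower. Pax3, a paired-box factor of neural crest and muscle, had 0.21, 11.7 and 14.2 CPM in tumours 1, 2 and 3, against 14.9 to 102 CPM (median 57.4) in ascites, and it did not pass (edgeR adjusted p = 0.105). The line had 89.1 CPM. Wt1, a zinc-finger factor of mesothelium and ovarian surface, stood at 17.8, 78.5 and 199 CPM in the 3 tumours, and at 139.7 to 609.6 CPM (median 478) in ascites, with 577 in the line, and it did not pass (edgeR adjusted p = 0.105). Healthy intestine had 2.31 CPM of Wt1. For Wnt10a, a secreted Wnt ligand, the tumours gave 0, 5.6 and 15.7 CPM, against 21.5 to 95.4 CPM (median 62.2) in the 6 ascites libraries, with 545 in the line. Healthy intestine had 0 CPM of Pax3 and 0.103 CPM of Wnt10a, so tumour 1 was near healthy gut for both. These levels go with every gut gene described here, and the part of gut tissue in the differences was not tested.

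**Figure D1:**
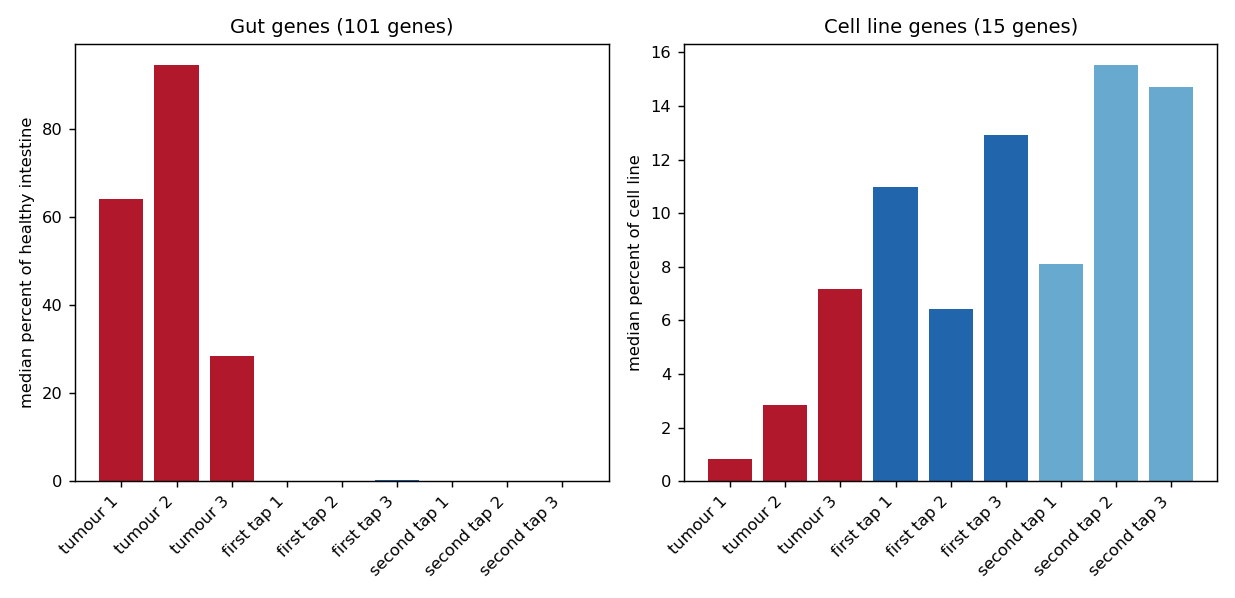
Median level of 101 gut genes as a percent of healthy intestine (left) and of 15 cell line genes as a percent of the cell line (right), in the 3 tumours on the intestine (red), the first tap (dark blue) and the second tap (light blue); each bar is 1 library and axes start at 0. Gut genes stood at 28.5 to 94.5% in the tumours and at most 0.226% in ascites, while line genes were lowest in tumour 1.

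Of 22671 genes tested, 4141 (18.3%) passed at a Benjamini-Hochberg adjusted p under 0.05 in edgeR's quasi-likelihood test. Of these, 2815 were higher in the tumours (12.4% of genes tested) and 1326 were lower (5.85%), and 7429 genes had an unadjusted p under 0.05. The median log2 fold change over all genes was -0.17, and it was -0.0736 with DESeq2's size factors and -0.423 with library size alone, so changes are read against that shift. At least 1 CPM in healthy intestine was seen for 2665 (94.7%) of the higher genes and 1077 (81.2%) of the lower genes, against 69.9% of all genes tested. At least 1 CPM in the cell line was seen for 44.3% of the higher genes and 78.1% of the lower genes, against 57.2% of all. The groups did not overlap for 87.0% of the higher genes and 85.7% of the lower genes, against 23.3% of all. The count of lower genes rested on few libraries: it was 303 without tumour 1, 258 without tumour 2, 658 without second tap 3, 769 without first tap 3 and second tap 1 together, and 918 without second tap 2. It was 715 with the first tap alone and 780 with the second alone, and the count of higher genes 1797 and 1933. A fit of the 9 libraries alone had 787 lower genes, and 844 with the name series as a term. Between these fits, list counts differed by over 1.5 times for lower mesenchymal genes (0 with the term, 1 without), lower mesothelial genes (2 with, 1 without), and higher interferon (3 with, 5 without), mast cell (0 with, 1 without), class II (0 with, 1 without) and complement genes (1 with, 0 without). The count of higher genes was between 1933 (without tumour 2) and 3029 when any 1 of the 9 was left out. No gene differed between the second and the first tap at an adjusted p under 0.05 in edgeR, and 145 had an unadjusted p under 0.05.

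**Figure D2:**
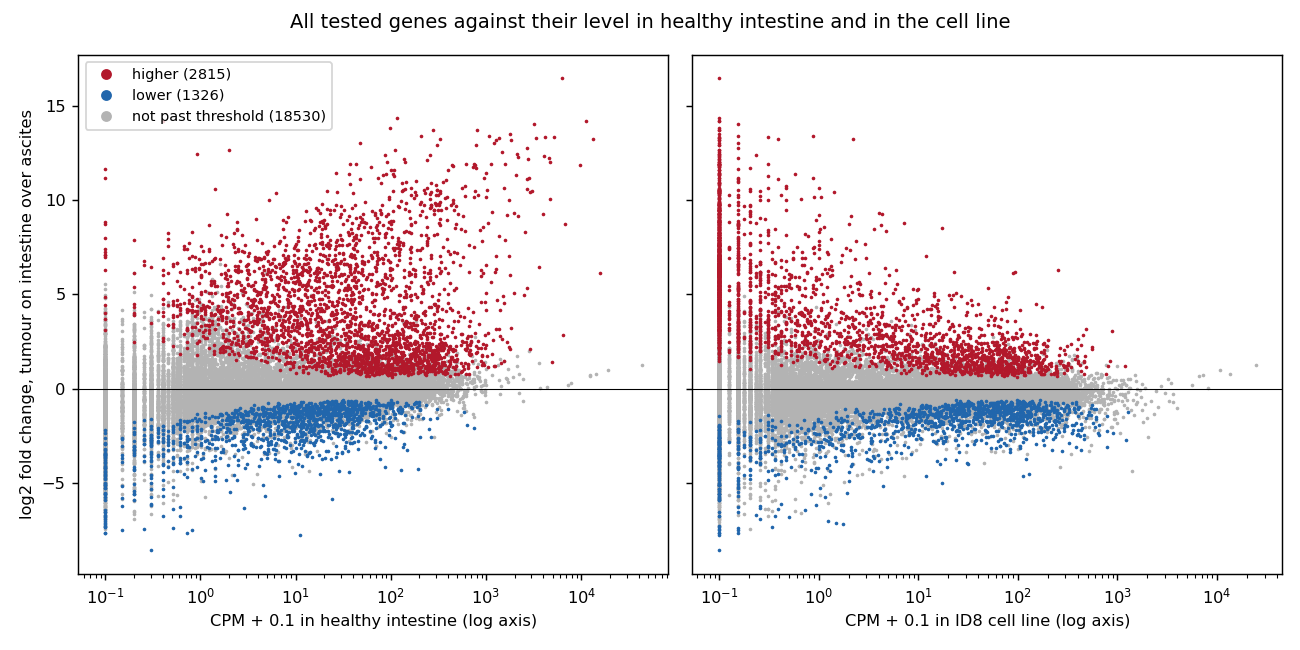
Log2 fold change of each tested gene, tumour on the intestine over ascites, against its level in healthy intestine (left) and in the ID8 line (right), as CPM + 0.1 on a log axis. Red points are the 2815 higher genes, blue points the 1326 lower genes and grey points the 18530 that did not pass. At least 1 CPM was reached by 94.7% of the higher genes in healthy intestine and by 44.3% of them in the line.

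Absorptive enterocyte genes had the highest median of the 40 gene lists: all 20 brush border genes were higher in the tumours, with a median log2 fold change of 11.87. Sis, the sucrase-isomaltase that splits dietary sugars at the brush border, measured 6462, 11504 and 3852 CPM in tumours 1, 2 and 3 and 0 to 2.38 CPM (median 0.222) in ascites (edgeR adjusted p = 0.000139). Healthy intestine had 11282 CPM and the line 0. Vil1, villin, which bundles the actin cores of microvilli, had 1950.4, 3555 and 911 CPM in tumours 1, 2 and 3, against 0.441 to 1.85 CPM (median 1.01) in ascites, with 2857 in healthy intestine and 0.768 in the line (edgeR adjusted p = 2.53e-06). Apob, the structural protein of chylomicrons, stood at 19717, 13058 and 2422 CPM in the 3 tumours, and at 0.0274 to 3.63 CPM (median 1.09) in ascites (edgeR adjusted p = 5.33e-05). Healthy intestine had 13268 CPM and the line 2.12. For Slc5a1, the sodium-coupled glucose carrier, the tumours gave 1560.3, 6227 and 1072 CPM, against 0 to 1.7 CPM (median 0.344) in the 6 ascites libraries, with 4597 in healthy intestine and 0.053 in the line (edgeR adjusted p = 0.000192). The groups did not overlap for any of these, and tumour 3 was the lowest tumour. Over all genes tested, 23.3% had no overlap between the groups. Anpep, a brush border aminopeptidase also found on myeloid cells, was the member with the highest ascites level and had 12377, 21009 and 2968 CPM in tumours 1, 2 and 3, against 78.3 to 332 CPM (median 151) in ascites, 15664 in healthy intestine and 89.6 in the line, with a log2 fold change of 6.14 (SE 0.62, edgeR adjusted p = 5.38e-05). Of 18 genes for intestinal drug and lipid handling, 17 were higher. Mttp, which loads lipid onto apolipoprotein B, measured 1013, 6735 and 576 CPM in tumours 1, 2 and 3 and 2.61 to 8.32 CPM (median 3.87) in ascites (edgeR adjusted p = 2.24e-05). Healthy intestine had 4016 CPM and the line 4.24. Tumour 2 had the most Mttp. Leaving out tumour 2 gave a log2 fold change of 5.48 for Anpep.

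Promoters of Sis and Fabp1 are shown because Cdx2, the homeobox factor of intestinal identity, was itself raised and the matched enterocyte promoters could be searched for a Cdx-type word. The letters TTTATG, read on both strands, were found in 5 of the 18 enterocyte promoters with an entry (27.8%), against 11.9% of all 32851 promoters of the same length. That word and the promoter words given later for cholesterol genes were chosen after their matches were seen, out of 16 patterns tried. Among the 16, TTTATGG was in 2 of the 18 enterocyte promoters (2.75% of all promoters) and TTTATTA in 0 (4.93% of all). The 300-base windows run from 250 bases before to 50 bases after the gene start in RefSeq, build GRCm38.p6, with TTTATG or its reverse complement in capitals. Sis lies on the minus strand at chr3:72967814-72968113, and Fabp1, a fatty acid carrier of proximal enterocytes, on the plus strand at chr6:71199629-71199928.
Sis: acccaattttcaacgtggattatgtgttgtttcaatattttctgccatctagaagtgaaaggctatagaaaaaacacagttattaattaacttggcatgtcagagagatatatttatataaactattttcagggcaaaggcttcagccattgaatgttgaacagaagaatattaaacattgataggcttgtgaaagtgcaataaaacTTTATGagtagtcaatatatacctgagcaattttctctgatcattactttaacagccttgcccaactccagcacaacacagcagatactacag
Fabp1: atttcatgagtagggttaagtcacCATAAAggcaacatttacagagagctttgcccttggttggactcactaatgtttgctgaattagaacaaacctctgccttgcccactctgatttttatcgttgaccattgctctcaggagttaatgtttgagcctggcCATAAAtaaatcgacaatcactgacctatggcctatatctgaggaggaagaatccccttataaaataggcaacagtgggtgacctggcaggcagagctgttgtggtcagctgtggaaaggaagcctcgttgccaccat
The Sis window held 1 match and the Fabp1 window 2. A match of letters is a description of the window and not a bound site.

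Secretory lineages of the gut lining rose with the enterocytes. Of 14 mucus and goblet cell genes tested, 11 were higher, and the 3 that did not pass are mucus genes of the stomach. Muc2, the gel-forming mucin of the gut, had 8834, 3850.3 and 2887 CPM in tumours 1, 2 and 3, against 1.49 to 9.98 CPM (median 4.44) in ascites, with 4681 in healthy intestine and 0.556 in the line (edgeR adjusted p = 6.48e-05). Fcgbp, a goblet cell protein of the mucus layer, stood at 9152, 4959 and 2706 CPM in the 3 tumours, and at 0 to 1.39 CPM (median 0.416) in ascites (edgeR adjusted p = 9.45e-05). Healthy intestine had 5139.6 CPM and the line 0. For Atoh1, the factor that commits crypt cells to secretory fates, the tumours gave 72.4, 22.4 and 15.2 CPM, against 0 to 0.153 CPM (median 0.0296) in the 6 ascites libraries, with 26.7 in healthy intestine and 0 in the line (edgeR adjusted p = 3.91e-05). Tumour 1 had the most of all 3 genes. Paneth and antimicrobial genes were higher for 10 of 11, with 1 that did not pass. Reg3b, a secreted lectin active against bacteria, measured 3502, 1252 and 58.3 CPM in tumours 1, 2 and 3 and 0 to 0.153 CPM (median 0) in ascites (edgeR adjusted p = 0.000503). Healthy intestine had 6257 CPM and the line 0. The second tap held no count of Reg3b in any library. Defa21, Defa22 and Defa24, alpha-defensins of Paneth cell granules, had 2 counts each in ascites, all in first tap 3, and belong to a family of near-identical copies whose split between genes is uncertain. Defa21, read with that limit, had 115, 29.9 and 539.6 CPM in tumours 1, 2 and 3, against 0 to 0.0765 CPM (median 0) in ascites, with 115 in healthy intestine and 0 in the line (edgeR adjusted p = 8.83e-05). Tumour 3 thus had the most Defa21 and the least Reg3b. Lyz1, the Paneth cell lysozyme, stood at 318, 267 and 1070.3 CPM in the 3 tumours, and at 8.71 to 83.1 CPM (median 48.3) in ascites (edgeR adjusted p = 0.0223). Healthy intestine had 686 CPM and the line 0. Defa17, another alpha-defensin, had no count in ascites and was at least 898-fold higher, with that floor set at 3 counts over the 6 libraries and covering counting error only. Enteroendocrine genes were higher for 11 of 11 at far lower levels. For Chgb, a granule protein of hormone cells, the tumours gave 14.9, 22.1 and 6.41 CPM, against 0.0756 to 0.612 CPM (median 0.329) in the 6 ascites libraries, with 24.9 in healthy intestine and 0.106 in the line (log2 fold change 5.43, SE 0.77, edgeR adjusted p = 0.00047). Sst, the hormone somatostatin, measured 16.8, 17.4 and 8.83 CPM in tumours 1, 2 and 3 and 0 to 0.178 CPM (median 0) in ascites (edgeR adjusted p = 0.000527). Healthy intestine had 10.8 CPM and the line 0. Gip, the incretin of the upper small bowel, had 1.05, 18.7 and 6.3 CPM in tumours 1, 2 and 3, against 0 to 0.11 CPM (median 0.0334) in ascites, with 19.4 in healthy intestine and 0.0265 in the line (edgeR adjusted p = 0.000617). Lyz1 (adjusted p = 0.0823 without tumour 3 and 0.054 without second tap 2) did not pass in edgeR when 1 library was left out.

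**Figure D3:**
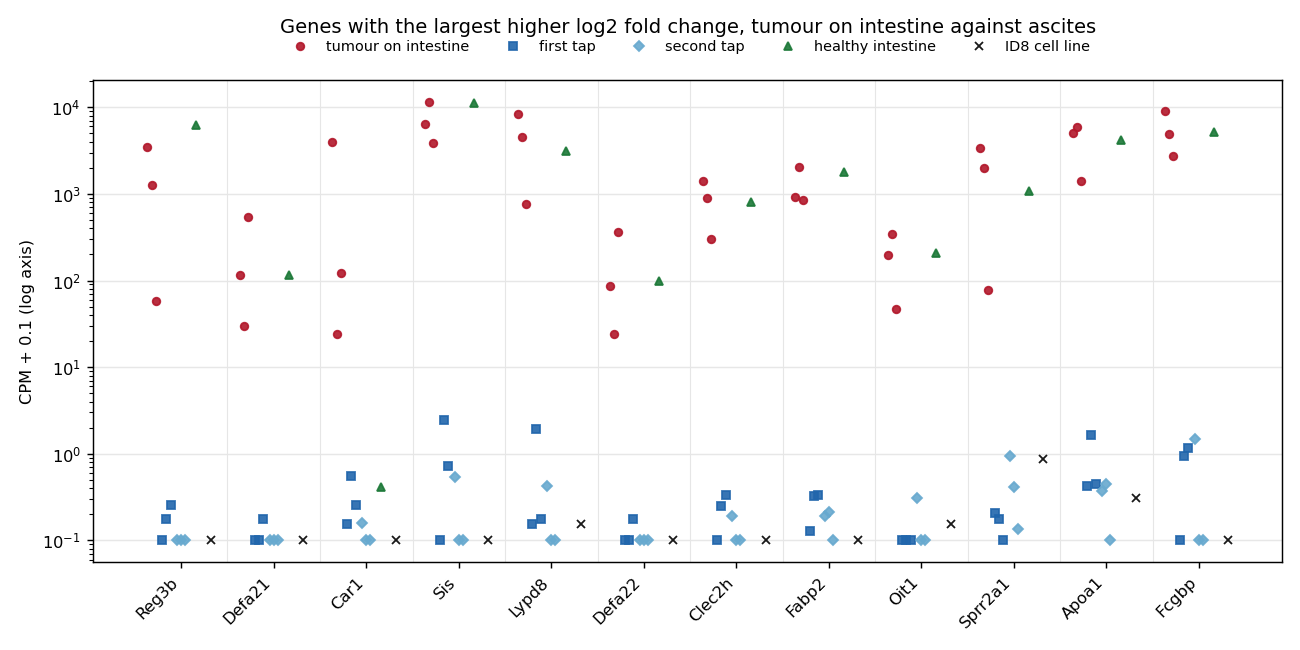
The 12 genes with the largest higher log2 fold change that met the naming rule, as CPM + 0.1 on a log axis; each point is 1 library, with tumours on the intestine (red), first tap (dark blue), second tap (light blue), healthy intestine (green) and the ID8 line (cross). The rule itself requires that all 3 tumours lie above all 6 ascites libraries for each gene. Car1 alone among the 12 is far below the tumours in healthy intestine.

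Transcription factors of gut epithelium were higher for 12 of 14. Hnf4a, a nuclear receptor that maintains enterocyte genes, stood at 2489, 1446 and 553 CPM in the 3 tumours, and at 0 to 0.842 CPM (median 0.0378) in ascites (edgeR adjusted p = 8.85e-05). Healthy intestine had 1211 CPM and the line 0.053. For Cdx2 the tumours gave 444, 197 and 75.1 CPM, against 0 to 0.355 CPM (median 0) in the 6 ascites libraries, with 140.2 in healthy intestine and 0 in the line (edgeR adjusted p = 9.28e-05). Isx, an intestine-specific homeobox factor, measured 277, 95.1 and 62.3 CPM in tumours 1, 2 and 3 and 0 to 0.207 CPM (median 0) in ascites (edgeR adjusted p = 5.33e-05). Healthy intestine had 88.7 CPM and the line 0. The ordering of the tumours was the same for these factors, with tumour 1 highest and tumour 3 lowest, and no ascites library reached 1 CPM. Of the 2 others, Gata4, a factor of the upper small bowel and of ovarian and mesothelial lineages, did not pass and overlapped between groups. It had 10.1, 348 and 113 CPM in the tumours, against 39.9 to 326 CPM (median 201) in ascites, 240.3 in healthy intestine and 139 in the line. Crypt stem cell genes moved less: 3 of 10 were higher, beside 12.4% of all genes tested. Prom1, a membrane protein of crypt and brush border cells, had 458, 41.9 and 12.7 CPM in tumours 1, 2 and 3, against 0 to 0.842 CPM (median 0.244) in ascites, with 72 in healthy intestine and 0 in the line (edgeR adjusted p = 0.000495). Olfm4, a marker of small bowel crypts, stood at 4.62, 57.5 and 28.3 CPM in the 3 tumours, and at 0.0572 to 2.16 CPM (median 0.413) in ascites (edgeR adjusted p = 0.00603). Healthy intestine had 163 CPM and the line 0. Lgr5, the Wnt-pathway receptor of crypt base cells, had 26.9, 9.85 and 9.61 CPM in tumours 1, 2 and 3, against 3.07 to 10.3 CPM (median 6.82) in ascites, with 18.3 in healthy intestine and 24.7 in the line, and did not pass (edgeR adjusted p = 0.223).

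The 3 tumours differed in genes that mark stretches of the bowel. These markers were picked after their values had been seen and are given as a description. For Car1, a carbonic anhydrase of colon epithelium, the tumours gave 3969.7, 24.2 and 122 CPM, against 0 to 0.454 CPM (median 0.057) in the 6 ascites libraries, with 0 in the line. Aqp8, a colonic water channel, measured 426, 0.934 and 1.17 CPM in tumours 1, 2 and 3 and 0 to 0.23 CPM (median 0) in ascites, with 0.053 in the line. Healthy intestine had only 0.308 and 0 CPM of these colonic genes, so all 3 tumours were above it for both. Slc10a2, the bile acid uptake carrier of the ileum, had 376, 0.424 and 11 CPM in tumours 1, 2 and 3, against 0 to 0.0888 CPM (median 0) in ascites, with 0 in the line. Fabp6, the ileal bile acid binding protein, stood at 107, 0 and 178 CPM in the 3 tumours, and at 0 to 0.118 CPM (median 0) in ascites, with 0.053 in the line. Healthy intestine had 0.822 and 0 CPM of these ileal genes. For Slc51a, a subunit of the ileal bile acid exporter, the tumours gave 772, 261 and 199 CPM, against 0.0821 to 1.09 CPM (median 0.609) in the 6 ascites libraries, with 212 in healthy intestine and 0.106 in the line. Car4, a membrane-bound carbonic anhydrase, measured 176, 281 and 58.7 CPM in tumours 1, 2 and 3 and 0.151 to 1.68 CPM (median 0.275) in ascites. Healthy intestine had 156 CPM and the line 0. Lct, lactase of the upper small bowel, had 7.87, 1914 and 322 CPM in tumours 1, 2 and 3, against 0.739 to 2.46 CPM (median 1.26) in ascites, with 2.01 in the line. Fabp1 stood at 8.29, 583 and 13.1 CPM in the 3 tumours, and at 0 to 0.227 CPM (median 0.0296) in ascites, with 0 in the line. Healthy intestine had 2149.6 and 434 CPM of these, close to tumour 2. Tumour 1 was thus highest for Car1, Aqp8 and Slc10a2 and lowest for Lct and Fabp1, tumour 2 was highest for Lct and Fabp1 and without a count of Fabp6, and tumour 3 had the most Fabp6. Slc51a was highest in tumour 1, but unlike the other ileal genes it was abundant in healthy intestine and in all 3 tumours, and Car4 was highest in tumour 2, so the markers did not share 1 order. Other genes chosen by rule for being under 1 CPM in healthy intestine were Hao2, Cyp2d34 and Foxd2, each carried by tumour 1. For Hao2, a peroxisomal hydroxy acid oxidase, the tumours gave 99.7, 0.637 and 0.498 CPM, against 0 to 0.268 CPM (median 0.0378) in the 6 ascites libraries, with 0 in healthy intestine and 0 in the line (edgeR adjusted p = 0.00421). Foxd2, a forkhead factor, measured 41.7, 1.1 and 1.17 CPM in tumours 1, 2 and 3 and 0.441 to 1.06 CPM (median 0.872) in ascites (edgeR adjusted p = 0.0168). Healthy intestine had 0.719 CPM and the line 0.954. Cyp2d34, a cytochrome P450 whose reads may be shared with near copies, had 58.6, 0.764 and 0.676 CPM in tumours 1, 2 and 3, against 0 to 0.533 CPM (median 0) in ascites, with 0 in healthy intestine and 0 in the line (edgeR adjusted p = 0.0208). Hao2 (adjusted p = 0.127 without tumour 1), Foxd2 (adjusted p = 0.723 without tumour 1), Cyp2d34 (adjusted p = 0.459 without tumour 1, 0.051 without first tap 1 and 0.053 without second tap 3) and Aqp8 (adjusted p = 0.0545 without tumour 1) did not pass in edgeR when 1 library was left out. Healthy intestine is a single library, and its segment is not given in the labels.

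Epithelial junction genes, the genes the study's question turns on, were higher for 18 of 25, with a median log2 fold change of 5.51. Cldn7, a claudin of epithelial tight junctions, stood at 605, 449 and 139 CPM in the 3 tumours, and at 0.605 to 1.1 CPM (median 0.78) in ascites (edgeR adjusted p = 2.53e-06). For Cdh1, E-cadherin, the adhesion protein of epithelial junctions, the tumours gave 1775, 1564 and 442 CPM, against 5.74 to 37.8 CPM (median 14.8) in the 6 ascites libraries (log2 fold change 6.17, SE 0.60, edgeR adjusted p = 3.91e-05). Epcam, an epithelial surface adhesion protein, measured 1089, 720.0 and 234 CPM in tumours 1, 2 and 3 and 1.85 to 16 CPM (median 5.29) in ascites (log2 fold change 6.53, SE 0.85, edgeR adjusted p = 0.000253). Healthy intestine had 391, 1251 and 1009 CPM, and the line had 0.848, 94 and 0.583 CPM. Tumour 3 was lowest for each, as it was for the gut genes, and below healthy intestine. Grhl2, a factor that maintains epithelial junctions, had 45.9, 16.3 and 12.9 CPM in tumours 1, 2 and 3, against 0.0572 to 1.68 CPM (median 0.446) in ascites, with 12.8 in healthy intestine and 0.106 in the line (edgeR adjusted p = 0.000654). Esrp1, an epithelial splicing regulator, stood at 289.6, 129 and 71.8 CPM in the 3 tumours, and at 0 to 0.977 CPM (median 0.0746) in ascites (edgeR adjusted p = 0.000407). Healthy intestine had 99.5 CPM and the line 0. Among the 7 that did not pass, Tjp1, the junction scaffold ZO-1, had 341, 269 and 222 CPM in the tumours, against 62.6 to 350.5 CPM (median 266) in ascites, 231 CPM in healthy intestine and 565 CPM in the line. The level of the epithelial list was 5.74 to 7.39 in the tumours and 2.09 to 3.16 in ascites, as a mean of log2(CPM + 1), beside 6.88 in healthy intestine and 2.34 in the line. Over the same libraries the enterocyte list stood at 8.78 to 11.08 in the tumours and 0.689 to 1.37 in ascites, and whether the epithelial genes come from tumour cells or gut lining was not tested.

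Of the keratins, the intermediate filaments of epithelia, 3 of 10 were higher: Krt20, Krt8 and Krt23. Among all genes tested 12.4% were higher. For Krt20, the keratin of differentiated gut epithelium, the tumours gave 1280.1, 1998 and 359 CPM, against 0 to 0.444 CPM (median 0.199) in the 6 ascites libraries, with 2128 in healthy intestine (edgeR adjusted p = 3.74e-05). Krt8, a simple-epithelium keratin, measured 1225, 1039.9 and 410.4 CPM in tumours 1, 2 and 3 and 32.5 to 467 CPM (median 193) in ascites, with 969.7 in healthy intestine (log2 fold change 2.14, SE 0.60, edgeR adjusted p = 0.0279). Krt19, another simple-epithelium keratin, had 779, 451 and 546 CPM in tumours 1, 2 and 3, against 78.4 to 496 CPM (median 360.5) in ascites, with 329 in healthy intestine, and it did not pass (edgeR adjusted p = 0.457). Krt8 and Krt19 overlapped between groups. The line had 0, 262 and 611 CPM of the 3 genes. Krt7 and Krt18, simple-epithelium keratins of ovarian and mesothelial cells, did not pass, with log2 fold changes of -1.82 and -1.11. The keratin count was 1 of 10 without tumour 1, tumour 2, second tap 1 or second tap 3, and without first tap 3 and second tap 1 together, and with either tap alone; without first tap 2, 1 keratin was lower. Krt8 (adjusted p = 0.101 without tumour 1, 0.0906 without tumour 2, 0.058 without second tap 1 and 0.0546 without second tap 3) and Krt23 (adjusted p = 0.0966 without tumour 1, 0.0682 without tumour 2, 0.141 without tumour 3, 0.0836 without first tap 1, 0.0863 without first tap 2, 0.0787 without first tap 3, 0.0711 without second tap 1, 0.095 without second tap 2 and 0.0995 without second tap 3) did not pass in edgeR when 1 library was left out. Desmosome genes, which rivet epithelial cells together, were higher for 5 of 11: Pkp3, Dsc2, Pkp1, Dsp and Dsg2. Dsp, desmoplakin, which anchors keratin to desmosomes, stood at 1085, 371 and 217 CPM in the 3 tumours, and at 4.76 to 94 CPM (median 32.4) in ascites (edgeR adjusted p = 0.00532). Healthy intestine had 592 CPM and the line 15.8. Without first tap 2, 1 desmosome gene was lower. Dsg2 (adjusted p = 0.0945 without tumour 1 and 0.0585 without tumour 2) did not pass in edgeR when 1 library was left out.

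The mesenchymal list moved in both directions, with 4 of 19 higher and 2 lower, and its median log2 fold change was -0.66. Over all genes tested, 12.4% were higher and 5.85% lower. For Postn, a matrix protein of activated fibroblasts, the tumours gave 26, 45.2 and 63.1 CPM, against 0.302 to 2.4 CPM (median 1.01) in the 6 ascites libraries, with 27.6 in healthy intestine and 0.265 in the line (log2 fold change 5.13, SE 0.64, edgeR adjusted p = 0.000195). Fbn1, the microfibril protein fibrillin, measured 83.7, 106 and 239 CPM in tumours 1, 2 and 3 and 3.33 to 17.4 CPM (median 8.28) in ascites (log2 fold change 3.95, SE 0.59, edgeR adjusted p = 0.000642). Healthy intestine had 65.4 CPM and the line 9.59. Mmp2, a gelatinase, and Tnc, a matrix glycoprotein, were the other higher members, with log2 fold changes of 4.02 and 2.70. Axl, a receptor kinase, and S100a4, a calcium-binding protein of motile cells, were lower, with log2 fold changes of -1.81 and -2.63. The count of lower members was 0 without tumour 1 or tumour 2, 1 without second tap 3, 4 without tumour 3, 0 without first tap 3 and second tap 1 together, and 1 with either tap alone. Vim, the intermediate filament vimentin, had 159, 341 and 1292 CPM in tumours 1, 2 and 3, against 781 to 4024 CPM (median 1125) in ascites, with 184 in healthy intestine and 1979.9 in the line, and it did not pass (edgeR adjusted p = 0.175). Fn1, the matrix protein fibronectin, stood at 356, 1065 and 2924 CPM in the 3 tumours, and at 2587 to 21505 CPM (median 6189) in ascites, and it did not pass (edgeR adjusted p = 0.0698). Healthy intestine had 283 CPM and the line 2022. Vim and Fn1 overlapped between groups and did not pass, and tumour 3 had the most of both among the tumours. Factors of the epithelial to mesenchymal transition were higher for Snai1, Snai3 and Prrx1 and lower for Zeb2, of 9, and with the first tap alone 1 was higher. For Snai1, a repressor of Cdh1, the tumours gave 6.51, 5.6 and 8.83 CPM, against 0.808 to 1.81 CPM (median 1.08) in the 6 ascites libraries, with 1.9 in healthy intestine (log2 fold change 2.56, SE 0.40, edgeR adjusted p = 0.000808). The line had 20.7 CPM, above every tumour. Zeb2, a repressor of Cdh1 that macrophages also express, measured 53.3, 74.3 and 174 CPM in tumours 1, 2 and 3 and 159.8 to 1443 CPM (median 488) in ascites (log2 fold change -2.64, SE 0.67, edgeR adjusted p = 0.0179). Healthy intestine had 111 CPM and the line 116. Zeb2 overlapped between groups at tumour 3. Zeb2 (adjusted p = 0.102 without tumour 1 and 0.111 without tumour 2), Axl (adjusted p = 0.112 without tumour 1 and 0.119 without tumour 2), S100a4 (adjusted p = 0.117 without tumour 1, 0.0817 without tumour 2 and 0.0539 without second tap 3), Snai3 (adjusted p = 0.0794 without tumour 1) and Prrx1 (adjusted p = 0.317 without tumour 2, 0.06 without tumour 3, 0.0752 without first tap 2, 0.0758 without first tap 3, 0.0817 without second tap 1 and 0.0839 without second tap 3) did not pass in edgeR when 1 library was left out. With tumour 3 left out, log2 fold changes were -3.23 for Zeb2 and -3.50 for S100a4. Leaving out first tap 2 gave a log2 fold change of -1.97 for Zeb2.

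Genes of mesothelium and ovarian surface epithelium did not pass for any of 12 members in edgeR, although the list's median log2 fold change was -3.23. Of the 12, 8 had an unadjusted p under 0.05, DESeq2 called 8 lower, and edgeR called 4 lower without first tap 2. Msln, mesothelin, a surface antigen of mesothelium and ovarian carcinoma, had 12, 15.3 and 28.8 CPM in tumours 1, 2 and 3, against 44 to 584 CPM (median 136) in ascites, with 4.57 in healthy intestine and 124 in the line, and it did not pass (edgeR adjusted p = 0.057). Upk3b, a mesothelial uroplakin, stood at 6.93, 138 and 139 CPM in the 3 tumours, and at 62.4 to 2407 CPM (median 577) in ascites, and it did not pass (edgeR adjusted p = 0.116). Healthy intestine had 16.6 CPM and the line 513. For Muc16, the CA125 mucin, the tumours gave 6.82, 2.8 and 7.44 CPM, against 5.74 to 192 CPM (median 45.8) in the 6 ascites libraries, with 0.616 in healthy intestine and 0.609 in the line, and it did not pass (edgeR adjusted p = 0.0611). Ascites libraries first tap 3 and second tap 3 held the highest values of all 3 genes and first tap 2 the lowest, and the list level ran from 3.39 to 5.25 in the tumours and from 4.46 to 8.77 in ascites. In the Müllerian and ovarian carcinoma list 2 of 12 were higher and 2 lower, beside 12.4% higher and 5.85% lower over all genes tested. Pax8, a paired-box factor of Müllerian epithelium, measured 8.19, 18 and 6.97 CPM in tumours 1, 2 and 3 and 0 to 1.45 CPM (median 0.258) in ascites (edgeR adjusted p = 0.0174). Healthy intestine had 18.8 CPM and the line 0.265. Esr1, the oestrogen receptor, had 9.03, 11.3 and 13.1 CPM in tumours 1, 2 and 3, against 21.1 to 37.6 CPM (median 33.6) in ascites, with 10.3 in healthy intestine and 12.3 in the line (log2 fold change -1.52, SE 0.35, edgeR adjusted p = 0.00926). Sox17, an endoderm and vessel factor, was also higher and Emx2, a urogenital homeobox factor, lower. The count of lower members was 0 without tumour 1 or tumour 2, 4 without first tap 2, 1 without first tap 3 and second tap 1 together and 5 in DESeq2. The count of higher members was 0 without tumour 2 or with either tap alone, 1 without tumour 1, tumour 3, second tap 2 or second tap 3, and 4 without first tap 3, alone or with second tap 1. Pax8 (adjusted p = 0.0759 without tumour 2), Esr1 (adjusted p = 0.0659 without tumour 1 and 0.0578 without tumour 2), Sox17 (adjusted p = 0.0502 without tumour 1, 0.0853 without tumour 2, 0.076 without tumour 3, 0.0554 without second tap 2 and 0.0669 without second tap 3) and Emx2 (adjusted p = 0.1 without tumour 1, 0.124 without tumour 2 and 0.0662 without tumour 3) did not pass in edgeR when 1 library was left out.

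Many smooth muscle, fibroblast and vessel genes were higher in the tumours. Smooth muscle genes rose for 10 of 12. Myh11, the smooth muscle myosin, stood at 565, 647 and 844 CPM in the 3 tumours, and at 0.114 to 2.55 CPM (median 0.604) in ascites, with 0.053 in the line (edgeR adjusted p = 2.13e-05). For Acta2, smooth muscle actin, the tumours gave 249, 366 and 534 CPM, against 7.49 to 21.6 CPM (median 8.59) in the 6 ascites libraries, with 23.6 in the line (log2 fold change 5.09, SE 0.44, edgeR adjusted p = 2.13e-05). Des, the muscle filament desmin, measured 169, 225 and 247 CPM in tumours 1, 2 and 3 and 0.735 to 6.21 CPM (median 2.25) in ascites, with 0.662 in the line (log2 fold change 6.20, SE 0.78, edgeR adjusted p = 0.000207). All 3 tumours were above healthy intestine, at 314, 219.5 and 154 CPM, for each of these genes, and tumour 3 was highest. Fibroblast genes were higher for 9 of 12. Pdgfrb, a growth factor receptor of fibroblasts and pericytes, had 39.5, 54.4 and 65.4 CPM in tumours 1, 2 and 3, against 1.03 to 5.92 CPM (median 2.11) in ascites, with 21.7 in healthy intestine and 22.7 in the line (log2 fold change 4.31, SE 0.41, edgeR adjusted p = 3.86e-05). Col1a1, the main chain of collagen I, stood at 129, 492 and 829.8 CPM in the 3 tumours, and at 5.32 to 160.2 CPM (median 53) in ascites (log2 fold change 3.05, SE 0.80, edgeR adjusted p = 0.0203). Healthy intestine had 80.3 CPM and the line 885. For Lum, a collagen-binding proteoglycan, the tumours gave 10.1, 30.8 and 55.6 CPM, against 0 to 1.94 CPM (median 0.426) in the 6 ascites libraries, with 13 in healthy intestine and 0 in the line (edgeR adjusted p = 0.00189). Tumour 3 had the most of each, and Col1a1 in tumour 1 was within the ascites range. Collagen genes were higher for 8 of 17 and lower for Col4a6, a basement membrane chain, which had 6.09, 9.76 and 18.6 CPM in the tumours, against 21.2 to 138 CPM (median 63.1) in ascites, 1.59 CPM in healthy intestine and 120.3 CPM in the line. The count of higher collagens was 5 without tumour 2, 4 without tumour 3 and 2 with the second tap alone, and of lower ones 2 without tumour 3. In the main fit 12.4% of all genes tested were higher and 5.85% lower. The fibroblast list level was 4.87 to 6.23 in the tumours on the intestine, and 5.6 to 6.65 in the 3 tumours of the ovary itself, and whether these genes mark bowel wall or tumour stroma was not tested. Col1a1 (adjusted p = 0.0585 without tumour 2, 0.0735 without tumour 3 and 0.0509 without second tap 1) and Col4a6 (adjusted p = 0.12 without tumour 1, 0.122 without tumour 2 and 0.0574 without second tap 3) did not pass in edgeR when 1 library was left out.

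Vessel genes were higher for 9 of 12. Cdh5, the cadherin of endothelial junctions, measured 15.6, 29.3 and 38.7 CPM in tumours 1, 2 and 3 and 0.441 to 2.31 CPM (median 1.06) in ascites (log2 fold change 4.56, SE 0.58, edgeR adjusted p = 0.000207). Healthy intestine had 38 CPM and the line 0. Pecam1, an endothelial and leukocyte adhesion protein, had 43, 50.1 and 65 CPM in tumours 1, 2 and 3, against 5.66 to 12.9 CPM (median 9.47) in ascites, with 77.1 in healthy intestine and 0.954 in the line (log2 fold change 2.51, SE 0.37, edgeR adjusted p = 0.000654). Emcn, a sialomucin of capillaries and veins, stood at 4.09, 9.93 and 17.4 CPM in the 3 tumours, and at 0 to 0.344 CPM (median 0.0592) in ascites (edgeR adjusted p = 0.000244). Healthy intestine had 7.86 CPM and the line 0. Esam, an endothelial and platelet adhesion protein, was lower, at 6.4, 18.2 and 25.2 CPM in the tumours, against 15.6 to 228 CPM (median 119.7) in ascites, with tumours 2 and 3 inside the ascites range, and at 7.6 CPM in healthy intestine and 37 CPM in the line. Esam (adjusted p = 0.0972 without tumour 1 and 0.0946 without tumour 2) did not pass in edgeR when 1 library was left out. Lymphatic vessel genes did not pass for any of 5 in edgeR, while 4 had an unadjusted p under 0.05 and DESeq2 called 1 higher and 2 lower. In edgeR 1 was higher without first tap 3 or second tap 1, 2 without both, and 1 lower without first tap 1 or first tap 2. Adipocyte genes were higher for 4 of 11. For Adipoq, the fat hormone adiponectin, the tumours gave 2.31, 8.49 and 8.47 CPM, against 0 to 0.306 CPM (median 0.0633) in the 6 ascites libraries, with 48.4 in healthy intestine and 0 in the line (edgeR adjusted p = 0.0122). Cidec, a lipid droplet protein of fat cells and enterocytes, measured 59, 106 and 18.5 CPM in tumours 1, 2 and 3 and 0 to 0.421 CPM (median 0) in ascites (edgeR adjusted p = 0.00155). Healthy intestine had 89.9 CPM and the line 0. Cfd and Plin4 were the other 2, and the adipocyte count was 2 with either tap alone and 9 of 10 in a fit of the 9 libraries alone. Plin4 (adjusted p = 0.1 without tumour 1, 0.0732 without tumour 2, 0.0687 without tumour 3, 0.0772 without first tap 1, 0.068 without first tap 3, 0.0728 without second tap 1, 0.0771 without second tap 2 and 0.0609 without second tap 3) did not pass in edgeR when 1 library was left out. Enteric neuron, glia and pacemaker genes were higher for Ret and Vip and lower for Ano1, of 13. These counts are near the shares over all genes tested, 12.4% higher and 5.85% lower. Ret, the receptor kinase of enteric neurons, had 21.7, 11.3 and 5.87 CPM in tumours 1, 2 and 3, against 0.11 to 1.19 CPM (median 0.518) in ascites, with 8.22 in healthy intestine and 0.053 in the line (edgeR adjusted p = 0.00155). Ano1, a chloride channel of pacemaker cells and some tumours, had 183 CPM in the line. Without first tap 3, 5 members were higher and 2 lower, and without second tap 1 as well, 6 were higher. With either tap alone 1 was higher, and without first tap 2, 2 were lower. Vip (adjusted p = 0.0871 without tumour 1) and Ano1 (adjusted p = 0.0584 without tumour 1 and 0.057 without tumour 2) did not pass in edgeR when 1 library was left out. None of 7 tested pancreatic acinar genes passed in edgeR, 1 had an unadjusted p under 0.05 and DESeq2 called none; edgeR called 1 higher without tumour 1.

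**Figure D4:**
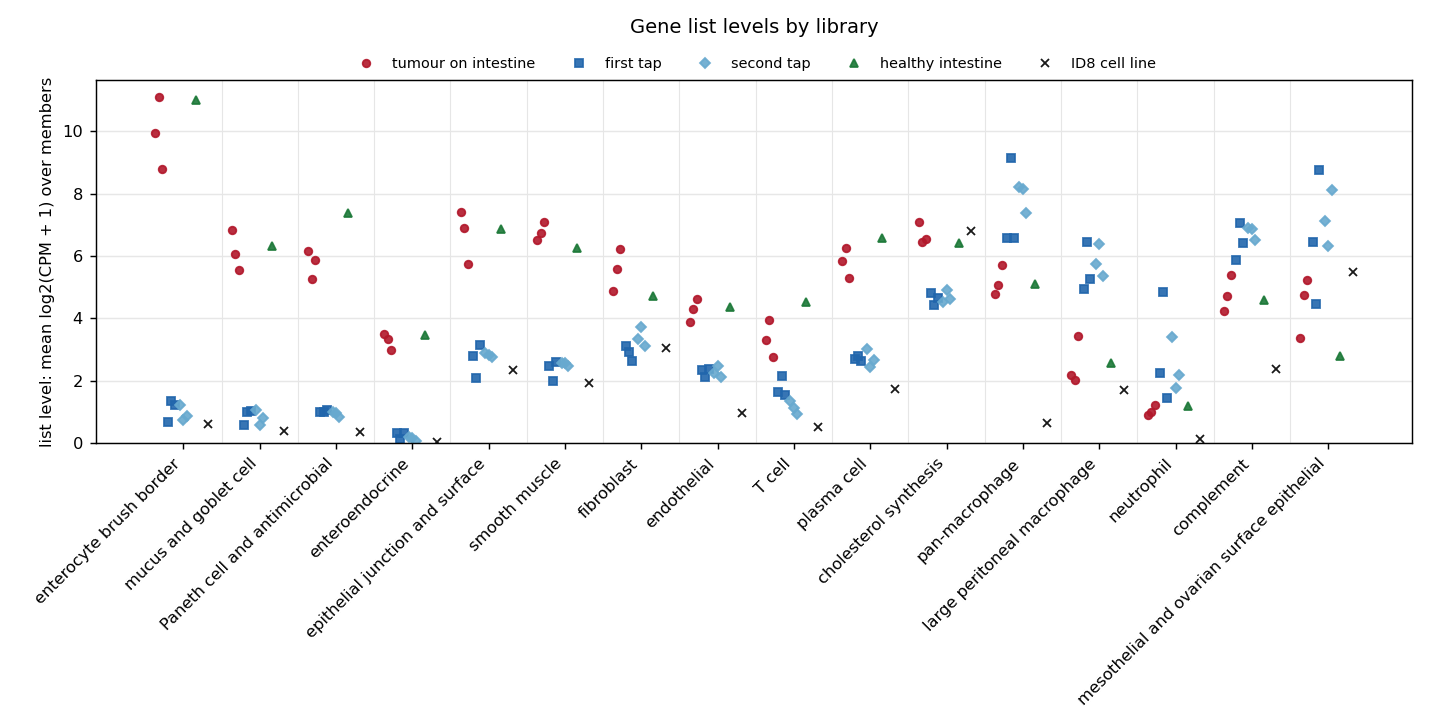
Mean log2(CPM + 1) over the members of 16 gene lists in each library, with tumours on the intestine (red), first tap (dark blue), second tap (light blue), healthy intestine (green) and the ID8 line (cross). The gut, epithelial, stromal, T cell, plasma cell and cholesterol synthesis lists lie higher in the 3 tumours than in the 6 ascites libraries. The pan-macrophage, large peritoneal macrophage, neutrophil and complement lists lie lower in the tumours, and the mesothelial list overlaps.

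Among the higher genes, 25 averaged at least 10 CPM in the tumours, did not overlap with ascites and were at or above 2 times the level of healthy intestine in every tumour. That rule was set after the values were seen, its last part is not tested, and it left out unnamed transcripts and antigen receptor segments. Dropping the call from the rule added no gene, so 25 of the 22671 genes tested (0.11%) met it. Pgm5, a phosphoglucomutase relative of muscle adhesion sites, stood at 99.5, 120.1 and 228 CPM in the 3 tumours, and at 0 to 0.503 CPM (median 0.0286) in ascites. Healthy intestine had 42.2 CPM and the line 0. For Grem1, a secreted antagonist of bone morphogenetic proteins, the tumours gave 107, 101 and 194 CPM, against 0 to 7.94 CPM (median 1.3) in the 6 ascites libraries, with 42.1 in healthy intestine and 252 in the line. Chrm2, the muscarinic receptor of gut muscle, measured 42.6, 53.3 and 129 CPM in tumours 1, 2 and 3 and 0 to 0.535 CPM (median 0) in ascites. Healthy intestine had 21.1 CPM and the line 0. Matrix genes among the 25 were Mgp, Cilp, Col8a1 and Serpine2. Mt2, a metal-binding metallothionein, had 85, 91.4 and 65.7 CPM in tumours 1, 2 and 3, against 5.85 to 27.7 CPM (median 9.69) in ascites, with 3.39 in healthy intestine and 2.12 in the line. Mt1, its close paralog, stood at 269, 413 and 242 CPM in the 3 tumours, and at 57.3 to 181 CPM (median 92.9) in ascites. Healthy intestine had 47 CPM and the line 44.8. Reads of the metallothioneins may be shared between near-identical copies. Car1, Aqp8, Hao2 and Cyp2d34, described above, were also among the 25. Mt1 (adjusted p = 0.0883 without tumour 2) did not pass in edgeR when 1 library was left out.

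Cholesterol synthesis genes rose together, by less than the gut genes: 12 of 13 were higher, with a median log2 fold change of 1.96. In this pathway sterol-regulated transcription factors switch on the enzymes when membrane cholesterol is low. For Fdps, which makes farnesyl diphosphate, the tumours gave 45.4, 49.5 and 51.6 CPM, against 4.63 to 7.23 CPM (median 6.36) in the 6 ascites libraries, with 44.6 in healthy intestine and 77.6 in the line (log2 fold change 3.00, SE 0.25, edgeR adjusted p = 1.61e-05). Sqle, the squalene epoxidase, measured 169.7, 113 and 119 CPM in tumours 1, 2 and 3 and 17.6 to 30.4 CPM (median 26.3) in ascites (log2 fold change 2.40, SE 0.21, edgeR adjusted p = 2.27e-05). Healthy intestine had 116 CPM and the line 149. All 13 members separated the 3 tumours from the 6 ascites libraries, as did 5276 (23.3%) of all genes tested in either direction. Srebf2, a sterol-regulated transcription factor of the pathway, was among the 13 and did not pass (edgeR adjusted p = 0.114). The list level was 6.43 to 7.09 in the tumours and 4.45 to 4.92 in ascites, beside 6.43 in healthy intestine and 6.82 in the line. The 6 ascites libraries were thus below the cultured line as well as below the tumours.

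Promoters of Hmgcs1 and Idi1, enzymes of the early and middle pathway, are shown because all 7 matched cholesterol promoters held a CCAAT box. Hmgcs1 had 309, 185 and 174 CPM in the tumours, against 27.2 to 58.3 CPM (median 40.6) in ascites, 175 in healthy intestine and 142 in the line. Idi1 had 24.3, 16.3 and 20.2 CPM in the tumours, against 1.99 to 3.45 CPM (median 2.91) in ascites, 22.2 in healthy intestine and 24.7 in the line. The letters CCAAT, on both strands, occurred in 37.4% of all 32851 promoters. A sterol element, TCACNCCAC, occurred in 1 of the 7 and in 1.24% of all. Capitals mark CCAAT in both windows and also TCACNCCAC in Hmgcs1. Both are on the plus strand, Hmgcs1 at chr13:119690101-119690400 and Idi1 at chr13:8885356-8885655.
Hmgcs1: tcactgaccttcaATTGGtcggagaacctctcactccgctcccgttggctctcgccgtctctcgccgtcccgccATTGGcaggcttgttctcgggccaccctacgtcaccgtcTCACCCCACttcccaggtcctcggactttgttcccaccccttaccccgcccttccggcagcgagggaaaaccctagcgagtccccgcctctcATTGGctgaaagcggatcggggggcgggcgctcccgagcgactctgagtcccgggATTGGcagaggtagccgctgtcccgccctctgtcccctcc
Idi1: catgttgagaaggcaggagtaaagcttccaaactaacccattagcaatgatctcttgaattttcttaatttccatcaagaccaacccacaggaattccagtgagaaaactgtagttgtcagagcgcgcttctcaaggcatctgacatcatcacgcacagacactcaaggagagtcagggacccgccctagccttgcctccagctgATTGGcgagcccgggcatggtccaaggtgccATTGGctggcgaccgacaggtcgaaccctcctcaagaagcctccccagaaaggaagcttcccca
The Hmgcs1 window held 4 CCAAT matches and 1 sterol element, and the Idi1 window 2 CCAAT matches.

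Lymphocyte genes of the T and cytotoxic lineages were higher in the tumours, for 10 of 15 T cell genes and 7 of 10 cytotoxic genes. The share of higher genes over all genes tested was 12.4%. Cd3e, part of the T cell receptor complex, had 32.4, 85.5 and 19 CPM in tumours 1, 2 and 3, against 0.355 to 6.31 CPM (median 1.32) in ascites, with 0 in the line (edgeR adjusted p = 0.000607). Cd8a, the co-receptor of cytotoxic and intraepithelial T cells, stood at 57.7, 146 and 34.8 CPM in the 3 tumours, and at 0.441 to 5.86 CPM (median 1.6) in ascites, with 0.053 in the line (edgeR adjusted p = 0.000894). For Gzma, a granzyme of killer cells, the tumours gave 45.7, 154 and 31.1 CPM, against 0 to 0.803 CPM (median 0.0735) in the 6 ascites libraries, with 0 in the line (edgeR adjusted p = 7.92e-05). Tumour 2 had the most of all 3, and healthy intestine had 69.3, 105 and 79 CPM. Foxp3, the factor of regulatory T cells, did not pass (edgeR adjusted p = 0.627). These counts rested in part on tumour 2: without it 4 T cell genes and 3 cytotoxic genes passed. Against the first tap alone 3 T cell and 3 cytotoxic genes passed, and against the second tap alone 9 and 7. Prf1, the pore-forming perforin, was 1 of the 7 higher cytotoxic genes. Prf1 (adjusted p = 0.129 without tumour 2) did not pass in edgeR when 1 library was left out. Plasma cell genes were higher for 7 of 10. Jchain, which joins IgA and IgM units, measured 361, 846 and 341 CPM in tumours 1, 2 and 3 and 0.458 to 4.51 CPM (median 2.03) in ascites (edgeR adjusted p = 0.000132). Healthy intestine had 1573 CPM and the line 0. Pigr, the epithelial receptor that carries IgA into the gut, had 2283, 5039.9 and 761 CPM in tumours 1, 2 and 3, against 0 to 1.44 CPM (median 0.583) in ascites, with 4727 in healthy intestine and 0 in the line (edgeR adjusted p = 0.000109). Pigr is made by the epithelium rather than by plasma cells. No B cell gene of 10 passed in edgeR, none had an unadjusted p under 0.05 and DESeq2 called none. For Cd79a, a B cell receptor subunit, the tumours gave 19.3, 11 and 11.1 CPM, against 2.32 to 10.8 CPM (median 4.49) in ascites, with 51.4 in healthy intestine and 0.265 in the line.

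Antigen presentation genes were higher for 6 of 9 class I members and 1 of 8 class II members, H2-DMb1. The class II count is near the share of higher genes over all genes tested, 12.4%. B2m, the light chain of class I molecules, stood at 2799, 4360.0 and 1472 CPM in the 3 tumours, and at 581 to 1424 CPM (median 1114) in ascites (log2 fold change 1.43, SE 0.42, edgeR adjusted p = 0.0352). Healthy intestine had 4877 CPM and the line 461. For H2-K1, a class I heavy chain, the tumours gave 853, 1384 and 336 CPM, against 174 to 369 CPM (median 217) in the 6 ascites libraries, with 1155 in healthy intestine and 37.6 in the line (log2 fold change 1.82, SE 0.47, edgeR adjusted p = 0.0188). Tumour 2 was highest in both genes. Without tumour 2 no class I gene passed in edgeR; the class I count was 3 without first tap 1, 3 without second tap 3, 1 without first tap 3 and second tap 1 together, 0 with the first tap alone and 1 with the second alone. The class II count was 5 without first tap 2, 2 without tumour 3, 3 in DESeq2, and 0 without any other 1 of the 9 libraries or with either tap alone. B2m (adjusted p = 0.08 without tumour 1, 0.206 without tumour 2, 0.0658 without first tap 1, 0.0639 without first tap 3, 0.0553 without second tap 1 and 0.0538 without second tap 3), H2-K1 (adjusted p = 0.137 without tumour 2), Psmb9 (adjusted p = 0.14 without tumour 2), Tap1 (adjusted p = 0.205 without tumour 2, 0.0607 without first tap 1, 0.052 without second tap 1 and 0.0519 without second tap 3), Tap2 (adjusted p = 0.202 without tumour 2) and H2-DMb1 (adjusted p = 0.0573 without tumour 1, 0.258 without tumour 2, 0.0773 without first tap 1, 0.0577 without first tap 3, 0.0541 without second tap 1, 0.0602 without second tap 2 and 0.0607 without second tap 3) did not pass in edgeR when 1 library was left out. Interferon response genes were higher for 5 of 14. Ifit1, an interferon-induced RNA-binding protein, measured 49.9, 129 and 17 CPM in tumours 1, 2 and 3 and 2.64 to 10.7 CPM (median 5.98) in ascites (edgeR adjusted p = 0.00339). Healthy intestine had 227 CPM and the line 4.45. Usp18, an interferon-induced protease, had 20.6, 168 and 8.04 CPM in tumours 1, 2 and 3, against 2.91 to 14.1 CPM (median 7.46) in ascites, with 81.3 in healthy intestine and 0.98 in the line (edgeR adjusted p = 0.0179). Irf7, Isg15 and Ifit2 were the others. The interferon count was 1 without tumour 2, 3 without first tap 3, second tap 2 or second tap 3, 1 with the first tap alone and 2 with the second alone. Usp18 (adjusted p = 0.445 without tumour 2), Irf7 (adjusted p = 0.0564 without tumour 1 and 0.0758 without tumour 2), Isg15 (adjusted p = 0.476 without tumour 2, 0.0545 without first tap 2, 0.0532 without first tap 3, 0.0666 without second tap 2 and 0.0643 without second tap 3) and Ifit2 (adjusted p = 0.578 without tumour 2, 0.0654 without first tap 1, 0.0669 without first tap 2, 0.0797 without first tap 3, 0.0899 without second tap 2 and 0.0791 without second tap 3) did not pass in edgeR when 1 library was left out.

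Of the chemokines, the secreted guides of leukocytes, 4 of 21 were higher and 5 lower, beside 12.4% and 5.85% of all genes tested. Ccl25, which draws T cells to the small bowel, stood at 156, 347 and 107 CPM in the 3 tumours, and at 3.8 to 13.1 CPM (median 7.72) in ascites (edgeR adjusted p = 3.73e-05). Healthy intestine had 314 CPM and the line 9.32. For Ccl28, a mucosal chemokine, the tumours gave 78.5, 30.8 and 12.1 CPM, against 0.302 to 4.76 CPM (median 1.09) in the 6 ascites libraries, with 41.6 in healthy intestine and 0.954 in the line (edgeR adjusted p = 0.00273). Cxcl9, which draws activated T cells, measured 10.7, 27.7 and 7.37 CPM in tumours 1, 2 and 3 and 0 to 1.07 CPM (median 0.132) in ascites (edgeR adjusted p = 0.00137). Healthy intestine had 27.6 CPM and the line 0. Ccl5, another T cell chemokine, was the remaining higher member. Cxcl2, which draws neutrophils, had 0.21, 0.17 and 0.356 CPM in tumours 1, 2 and 3, against 2.68 to 82.9 CPM (median 11.5) in ascites, with 0.205 in healthy intestine and 0.848 in the line (log2 fold change -6.18, SE 1.49, edgeR adjusted p = 0.0135). Pf4, a platelet and myeloid chemokine, stood at 2.73, 0.849 and 4.2 CPM in the 3 tumours, and at 13.7 to 129 CPM (median 37.3) in ascites (log2 fold change -4.13, SE 0.84, edgeR adjusted p = 0.0051). Healthy intestine had 0.822 CPM and the line 0. For Ccl6, a myeloid chemokine, the tumours gave 126, 55.7 and 258 CPM, against 354 to 2272 CPM (median 959) in the 6 ascites libraries, with 77.4 in healthy intestine and 0.159 in the line (log2 fold change -2.85, SE 0.88, edgeR adjusted p = 0.0422). Ccl7 and Ccl3 were also lower. The count of lower chemokines was 1 without tumour 1, 1 without tumour 2, 2 without second tap 1 or second tap 2, and 3 without first tap 2 or second tap 3. It was 3 without first tap 3 and second tap 1 together, 2 with the first tap alone and 3 with the second alone. Cxcl2 (adjusted p = 0.0646 without tumour 1 and 0.0797 without tumour 2), Ccl6 (adjusted p = 0.167 without tumour 1, 0.185 without tumour 2, 0.0599 without first tap 2, 0.0683 without second tap 1, 0.0681 without second tap 2 and 0.0602 without second tap 3), Ccl7 (adjusted p = 0.148 without tumour 1, 0.155 without tumour 2, 0.0556 without second tap 1 and 0.0578 without second tap 2) and Ccl3 (adjusted p = 0.156 without tumour 1, 0.128 without tumour 2, 0.119 without tumour 3, 0.0667 without first tap 2, 0.0772 without second tap 1, 0.0543 without second tap 2 and 0.0597 without second tap 3) did not pass in edgeR when 1 library was left out. Without tumour 3 the log2 fold change was -3.48 for Ccl6. With first tap 2 left out, log2 fold changes were -5.42 for Cxcl2, -3.23 for Pf4 and -2.10 for Ccl6.

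Macrophage genes fell in the tumours: 10 of 14 pan-macrophage genes and 6 of 12 large peritoneal macrophage genes were lower. Among all genes tested 5.85% were lower. None of either list was higher, but without first tap 2, 1 pan-macrophage gene was higher. Itgam, the integrin CD11b, measured 27.1, 35.5 and 80.9 CPM in tumours 1, 2 and 3 and 348 to 2717 CPM (median 706) in ascites (log2 fold change -4.42, SE 0.86, edgeR adjusted p = 0.00398). Healthy intestine had 36.4 CPM and the line 0. Lyz2, the macrophage lysozyme, had 93.4, 128 and 291 CPM in tumours 1, 2 and 3, against 743 to 6674 CPM (median 2846) in ascites, with 191 in healthy intestine and 0 in the line (log2 fold change -4.29, SE 0.91, edgeR adjusted p = 0.00634). Adgre1, the F4/80 antigen, stood at 9.76, 25.9 and 25.8 CPM in the 3 tumours, and at 73.1 to 556 CPM (median 128) in ascites (log2 fold change -3.32, SE 0.71, edgeR adjusted p = 0.00662). Healthy intestine had 21.8 CPM and the line 0. First tap 2 was the highest of the 6 ascites libraries for all 3, and the lowest ascites value was above every tumour. Without first tap 2 the log2 fold change was -3.58 for Itgam and -2.53 for Adgre1. The large peritoneal macrophage list had the lowest median log2 fold change of the 40 lists, -3.81. For Cd5l, a secreted protein of tissue macrophages, the tumours gave 0.63, 0 and 0.712 CPM, against 41.7 to 173 CPM (median 98.9) in the 6 ascites libraries, with 11 in healthy intestine and 0 in the line (log2 fold change -7.78, SE 1.63, edgeR adjusted p = 0.00583). Fcna, a ficolin of macrophages, measured 1.68, 0.934 and 6.55 CPM in tumours 1, 2 and 3 and 17.1 to 357 CPM (median 129) in ascites (log2 fold change -5.69, SE 1.1, edgeR adjusted p = 0.00379). Healthy intestine had 4.62 CPM and the line 0.053. F5, coagulation factor V, made by large peritoneal macrophages, had 1.99, 1.32 and 3.81 CPM in tumours 1, 2 and 3, against 31.9 to 182 CPM (median 49) in ascites, with 4.42 in healthy intestine and 0 in the line (log2 fold change -5.09, SE 0.89, edgeR adjusted p = 0.00197). Marco, a scavenger receptor, stood at 0.105, 0.34 and 1.74 CPM in the 3 tumours, and at 27 to 67.5 CPM (median 45.4) in ascites (log2 fold change -5.87, SE 1.56, edgeR adjusted p = 0.0218). Healthy intestine had 23.9 CPM and the line 0. Healthy intestine was above every tumour for Cd5l and Marco. Marco (adjusted p = 0.0926 without tumour 1 and 0.112 without tumour 2) did not pass in edgeR when 1 library was left out. Leaving out tumour 3 gave a log2 fold change of -8.59 for Cd5l, -6.92 for Fcna and -7.46 for Marco. Without first tap 2 the log2 fold change was -4.92 for Fcna. Leaving out tumour 2 gave a log2 fold change of -7.10 for Cd5l. Gata6, the factor that sets large peritoneal macrophage identity, did not follow them and had 131, 272 and 175 CPM in the tumours, against 71.5 to 282 CPM (median 258) in ascites, with 167 CPM in healthy intestine and 274 CPM in the line.

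**Figure D5:**
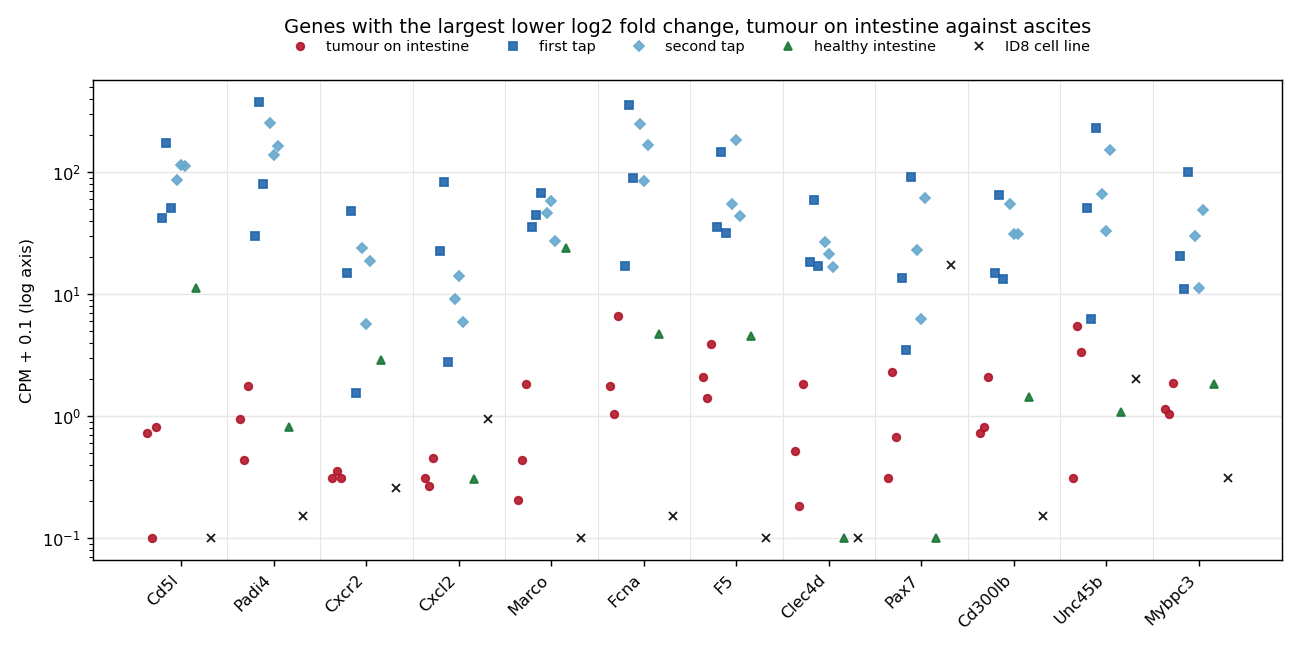
The 12 genes with the largest lower log2 fold change that met the naming rule, as CPM + 0.1 on a log axis; each point is 1 library, with tumours on the intestine (red), first tap (dark blue), second tap (light blue), healthy intestine (green) and the ID8 line (cross). The rule itself requires that all 3 tumours lie below all 6 ascites libraries. All but Pax7 and Unc45b are under 1 CPM in the line.

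Other myeloid genes were lower too. For Padi4, an enzyme that citrullinates histones in granulocytes and macrophages, the tumours gave 0.84, 0.34 and 1.67 CPM, against 30.0 to 377 CPM (median 151) in the 6 ascites libraries, with 0.719 in healthy intestine and 0.053 in the line (log2 fold change -7.48, SE 1.14, edgeR adjusted p = 0.000757). Clec4d, a myeloid lectin receptor, measured 0.42, 0.0849 and 1.74 CPM in tumours 1, 2 and 3 and 16.7 to 58.8 CPM (median 19.7) in ascites (log2 fold change -5.05, SE 0.93, edgeR adjusted p = 0.00284). Healthy intestine had 0 CPM and the line 0. Neutrophil genes were lower for Csf3r and Cxcr2, of 12 tested, beside 5.85% lower over all genes tested. Cxcr2, the neutrophil chemokine receptor, had 0.21, 0.255 and 0.213 CPM in tumours 1, 2 and 3, against 1.45 to 48 CPM (median 16.7) in ascites, with 2.77 in healthy intestine and 0.159 in the line (log2 fold change -6.32, SE 1.3, edgeR adjusted p = 0.00533). S100a8, an abundant neutrophil calcium-binding protein, stood at 0.63, 0.0849 and 1.71 CPM in the 3 tumours, and at 1.53 to 44.9 CPM (median 7.58) in ascites, and it did not pass (edgeR adjusted p = 0.0548). Healthy intestine had 0.308 CPM and the line 0.106. DESeq2 called 7 of the 12 lower, and edgeR called 5 without first tap 3 and 4 without second tap 1 as well. Leaving out tumour 3 gave a log2 fold change of -8.24 for Padi4 and -6.83 for Clec4d. With first tap 2 left out, log2 fold changes were -6.70 for Padi4 and -5.62 for Cxcr2. Without tumour 2 the log2 fold change was -4.44 for Clec4d. Complement genes were lower for 8 of 14, among them 3 C1q chains and the receptors C5ar1 and C3ar1, which macrophages make. For C5ar1, the receptor for C5a, the tumours gave 6.19, 8.61 and 18.3 CPM, against 52.1 to 304 CPM (median 135) in the 6 ascites libraries, with 4.26 in healthy intestine and 0 in the line (log2 fold change -3.72, SE 0.63, edgeR adjusted p = 0.00162). Cfp, properdin, which stabilises the alternative pathway, measured 10.5, 10.8 and 19.8 CPM in tumours 1, 2 and 3 and 84.3 to 675 CPM (median 254) in ascites (log2 fold change -4.38, SE 0.85, edgeR adjusted p = 0.0039). Healthy intestine had 28.2 CPM and the line 3.42. C1qa, a C1q chain, had 34.1, 49.5 and 83.1 CPM in tumours 1, 2 and 3, against 141 to 727 CPM (median 383) in ascites, with 44.9 in healthy intestine and 0 in the line (log2 fold change -2.81, SE 0.56, edgeR adjusted p = 0.00432). The count of lower complement genes was 5 without tumour 2, and 1 was higher without first tap 2. Of the dendritic cell list none of 10 passed in edgeR, while 3 had an unadjusted p under 0.05 and DESeq2 called 1 higher and 2 lower. In edgeR 2 were higher without first tap 2, where the list's median log2 fold change was 0.117, against -0.874 with it, and 1 was lower without tumour 3. Of the mast cell list 1 of 8 was higher, Mcpt1, a mucosal mast cell protease, and it did not pass with either tap alone. That count is near the share of higher genes over all genes tested, 12.4%. Mcpt1 (adjusted p = 0.133 without tumour 1, 0.0931 without tumour 2, 0.0635 without first tap 1, 0.0556 without first tap 2, 0.0699 without second tap 2 and 0.0552 without second tap 3) did not pass in edgeR when 1 library was left out. Leaving out first tap 2 gave a log2 fold change of -3.12 for C5ar1 and -3.60 for Cfp.

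Lower genes also included many that the cell line expresses: 620 of the 1326 had at least 10 CPM in the line, a mean of at least 10 CPM in ascites and no overlap between the groups, a split made after the values were seen. With the call dropped from that rule, 1044 of all genes tested (4.61%) met it. Unnamed transcripts and antigen receptor segments were left out of both counts. Hmox1, the haem oxygenase of stressed cells and macrophages, stood at 25.1, 27.2 and 69.8 CPM in the 3 tumours, and at 538 to 1621 CPM (median 929) in ascites. Healthy intestine had 17.9 CPM and the line 129.9. For Npr1, a receptor for natriuretic peptides, the tumours gave 10.2, 18 and 21.4 CPM, against 44.4 to 273 CPM (median 170.2) in the 6 ascites libraries, with 6.11 in healthy intestine and 222 in the line. Plxna4, a semaphorin receptor, measured 20.3, 98.2 and 89.3 CPM in tumours 1, 2 and 3 and 183 to 1049.6 CPM (median 688) in ascites. Healthy intestine had 12.5 CPM and the line 279. Emilin2, an extracellular matrix glycoprotein, had 7.03, 10.3 and 37 CPM in tumours 1, 2 and 3, against 151 to 1381 CPM (median 336) in ascites, with 6.67 in healthy intestine and 11.9 in the line. Sez6l, a neuronal-type membrane protein, stood at 2.94, 30.4 and 22.5 CPM in the 3 tumours, and at 83.3 to 447 CPM (median 238) in ascites. Healthy intestine had 1.23 CPM and the line 15.2. For Fabp5, a fatty acid binding protein, the tumours gave 0.945, 1.19 and 1.42 CPM, against 8.34 to 17.4 CPM (median 12.1) in the 6 ascites libraries, with 8.78 in healthy intestine and 25.6 in the line. Tumour 1 was the lowest tumour for each of these 6. Pax7, a paired-box factor of muscle stem cells, measured 0.21, 2.21 and 0.569 CPM in tumours 1, 2 and 3 and 3.36 to 91.1 CPM (median 18.1) in ascites (log2 fold change -4.99, SE 1.55, edgeR adjusted p = 0.0434). Healthy intestine had 0 CPM and the line 17.1. Unc45b, a myosin chaperone of striated muscle, had 0.21, 5.39 and 3.24 CPM in tumours 1, 2 and 3, against 6.12 to 232 CPM (median 58.1) in ascites, with 0.976 in healthy intestine and 1.93 in the line (log2 fold change -4.89, SE 1.23, edgeR adjusted p = 0.0168). Unc45b is not among the 620, being under 10 CPM in the line. Pax7 (adjusted p = 0.159 without tumour 1, 0.091 without tumour 2, 0.117 without tumour 3, 0.0652 without first tap 3, 0.0593 without second tap 1 and 0.085 without second tap 3), Unc45b (adjusted p = 0.0569 without tumour 1, 0.0516 without tumour 2 and 0.0511 without tumour 3), Plxna4 (adjusted p = 0.0712 without tumour 1 and 0.0593 without tumour 2) and Sez6l (adjusted p = 0.132 without tumour 1, 0.106 without tumour 2, 0.0865 without tumour 3, 0.0549 without first tap 1, 0.0558 without first tap 3, 0.0558 without second tap 2 and 0.0749 without second tap 3) did not pass in edgeR when 1 library was left out. With first tap 3 left out, log2 fold changes were -3.95 for Pax7 and -4.00 for Unc45b. Without tumour 2 the log2 fold change was -6.20 for Pax7 and -5.51 for Unc45b. Without second tap 3 the log2 fold change was -4.39 for Pax7.

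Several lists showed little or no change. No proliferation gene of 17 passed in edgeR, 1 had an unadjusted p under 0.05 and DESeq2 called none; the median log2 fold change was -0.28, and edgeR called 1 higher without first tap 2 and 1 lower without tumour 3. Mki67, the marker of cycling cells, stood at 61.1, 235 and 488 CPM in the 3 tumours, and at 88.4 to 558 CPM (median 374) in ascites, with 433 in healthy intestine, and it did not pass (edgeR adjusted p = 0.61). Tumour 1 was lowest among the tumours, and the line was above every tumour and ascites library at 1194 CPM. Of hypoxia and glycolysis genes, P4ha1, a collagen prolyl hydroxylase, was lower and the other 14 did not pass, except that 1 was higher without tumour 3. Over all genes tested, 5.85% were lower. For P4ha1 the tumours gave 14.2, 11.7 and 23.9 CPM, against 46.4 to 189 CPM (median 68.8) in the 6 ascites libraries, with 11.7 in healthy intestine and 53.6 in the line (log2 fold change -2.49, SE 0.53, edgeR adjusted p = 0.00618). None of the 8 erythroid genes tested passed in edgeR, none had an unadjusted p under 0.05 and DESeq2 called none.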

How the data were processed

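RNA came from Trizol extraction, and total RNA libraries were prepared with a modified, directional NEBNext Ultra II protocol, per the labels' protocols. The submitters' processing notes name HISAT, HISAT2, featureCounts and DESeq2 and the builds hg19 and mm39. Versions, roles and the strand setting of counting are not given in the sources used here, so reads of overlapping antisense genes cannot be told apart. The deposited table holds raw counts per Ensembl gene for 43629 genes. A column that matches no sample here (1 in all) was not used.

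Counts were fitted with edgeR 4.0.16 (R 4.3.3, limma 3.58.1): genes over 0.5 CPM in at least 2 libraries, TMM scaling, robust quasi-likelihood fit of all 17 libraries in 8 groups with 9 residual degrees of freedom. The contrast was the tumours on the intestine minus the mean of the first and second tap, with Benjamini-Hochberg adjustment over 22671 genes and a threshold of 0.05. CPM were scaled to effective library sizes. Symbols came from the reference table for 42462 IDs, and 146 symbols were shared by several IDs. The code was tested on simulated data. Alternatives were other scalings, filters and samples, DESeq2 1.42.0, a replicate block and leaving out each library.

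Named genes were up to 12 in each direction by fold change among those past the threshold whose log2 fold change was 1 or more in size, whose higher group averaged 10 CPM or more and whose groups did not overlap. The same rule gave up to 10 higher genes under 1 CPM in healthy intestine and up to 10 lower genes under 1 CPM in the line. Up to 4 genes of each list by p, and any list member whose values are described, were added. Members and lists were chosen with earlier results of these data known. The name series, and leaving out first tap 3 and second tap 1 together, were added after seeing the data. Values of some list members are not reported here.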

Additional observations from a re-analysis of the deposited data

Results flagged for a closer look

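For each gene named by rule or described and each gene list, the 6 ascites libraries were checked for 1 library lying apart from the other 5 by Dixon's criterion at 95%. Of 285 such checks 25 met it. Chance alone gives about 1 in 20 for measured values, but that rate does not hold near 0: in 5 of the 25 the other libraries were all at 0, where any count meets the criterion, and in 13 the library apart was under 1 CPM. No described gene differed between the second and the first tap at an adjusted p under 0.05 in edgeR.

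First tap 2 was apart for 10 of these. It was the highest ascites library for Lypd8 (1.85 CPM, next 0.326), Apoa1 (1.55, next 0.344), Tff3 (0.34, next 0.0765) and Clec4d (58.8, next 26.7). It was the lowest for Wt1 (139.7 CPM, next 407), Gata4 (39.9, next 159), Tjp1 (62.6, next 184), Krt19 (78.4, next 256) and Gata6 (71.5, next 191), and for the smooth muscle list, with a level of 2.00 against 2.47 in the next library. The same library had the highest CPM of the macrophage genes Itgam, Lyz2 and Adgre1.

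First tap 3 and second tap 1, the libraries with the most genes detected, were apart for 7 and 5. First tap 3 was highest for Defa21, Defa22 and Defa24 (0.0765 CPM each, from 2 counts, with 0 in the other 5), Aqp8 (0.23), Itln1 (0.23), Sct (0.153) and Gzma (0.803). Second tap 1 was highest for Oit1 (0.207), Reg3g (0.622), Cdx2 (0.355), Cpb1 (0.267) and Ccl21a (0.178). All are under 1 CPM.

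First tap 1 was lowest for Esr1 (21.1 CPM, next 30.3) and Mki67 (88.4, next 322), and second tap 3 for the Paneth and antimicrobial list (level 0.831, next 0.988).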

How the results depend on the processing

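Against 2815 higher and 1326 lower genes, the count of higher genes was 1797 with the first tap only and 1933 with the second tap only, and between 1933 and 3029 when 1 library was left out. Lower genes numbered 855 with no filter on low counts, 2396 in DESeq2, 787 with the 9 libraries alone, 715 with the first tap only, 780 with the second tap only, 844 with the 9 libraries and the name series as a term, 769 without first tap 3 and second tap 1 together, and 258 to 1658 when 1 library was left out. The cause of these shifts was not tested, except that leaving out a library or tap leaves fewer samples. Same-numbered libraries had correlations of their deviations between -0.549 and 0.133, and the main fit did not use the numbers to pair samples. Tumours 1, 2 and 3 each correlated best with their own number in the second tap (0.133, 0.0867 and 0.056). First tap 1 correlated best with second tap 2 (0.607), which shares its name series. These correlations thus cannot decide whether the numbers pair samples. Whether same-numbered libraries share an animal is not stated. With the replicate number as a block, 2199 genes were higher and 505 lower, in a fit of 9 libraries. With taps of the same number summed, 2315 genes were higher and 1371 lower.

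Of 188 genes named by rule or described and past the threshold, 137 kept direction and threshold wherever the 21 alternatives gave an adjusted p. Of the 188, 0 reversed. Some had no such value: DESeq2 gave one for 183 of them, and the filter of over 1 CPM in at least 3 libraries for 186. Reversals were limited to genes that had not passed. Leaving out 1 library gave Cpb1 -0.374 (without tumour 2) to 4.57, Cma1 -3.34 to 0.211 (without second tap 2), Hba-a1 -0.985 to 0.0814 and Hbb-bs -0.722 to 0.401 (both without first tap 1), Tjp1 -0.0573 (without first tap 2) to 0.376, and, each reversed without tumour 1, Gata4 -1.62 to 0.213, Gata6 -0.477 to 0.0645 and Mki67 -1.23 to 0.0561. Cma1 was at 0.0587 with the 9 libraries and the name series as a term, Hba-a1 at 0.259 and Hbb-bs at 0.462 with the replicate block, and Tjp1 at -0.0809 with library size alone, as log2 fold changes. For a gene without a count in the tumours, the floor was set at 3 counts over all 3 tumours together, 0.04903 CPM. Tumour 1 had the fewest counts of the 9 libraries, 12031221. A single library of healthy intestine and of the line limits every level set against them.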
